A study of Mus musculus with 4 samples.

Results

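The genes described here are 9 genes of beta-adrenergic and cAMP signalling in ChAT-eGFP+ cells of mouse inguinal white adipose tissue (IWAT). They were chosen by name, with earlier results of these data known, as Adrb1, Pde3b, Pde4a, Pde4b, Pde4d, Pde7a, Rgs2, Crem and Fosl2. All 9 were found by symbol in the count matrices. In the study, ChATBAC-eGFP male mice, 5 weeks old at the start, lived for 3 weeks at 30 °C, a thermoneutral temperature, and then spent 4 h at 4 °C or stayed there. These mice carry eGFP on a bacterial artificial chromosome with the regulatory region of Chat, the gene for the enzyme that makes acetylcholine, in both groups. Live single eGFP+ cells were sorted from the stromal vascular fraction, from which floating adipocytes had been removed, and sequenced from the 3′ end (10x, version 3 chemistry). There were 2 libraries per temperature, each from 4 pooled mice. The mice of the cold group had also spent a day at room temperature before the cold, so the 2 changes of temperature cannot be told apart. With 2 libraries a group, an exact permutation test on a single value cannot give a p below 0.3333.

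Noradrenaline from sympathetic nerves acts on beta-adrenergic receptors in fat, where cold raises its release. The receptors couple to Gs, which turns on adenylyl cyclase, and the cAMP that follows acts through protein kinase A and the transcription factor CREB. Phosphodiesterases break cAMP down, RGS proteins shorten G protein signalling, and early target genes such as Crem feed back on CREB. In macrophages, B cells and other lymphocytes, a rise in cAMP is generally known to dampen activation.

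After the filters of the study's methods, 5191 to 5388 cells per library were left, 21253 in all, with a median of 7520 to 8068 UMIs (unique molecular identifiers, 1 per captured transcript) per cell. Of these cells, 86.1 to 90.9% per library fell into 1 of 12 cell types by marker genes, and a name such as macrophages below stands for cells that carry the markers of that type. The name αβT cells is given by what is absent. These cells carried T cell markers but no UMI of Foxp3, Trdc or Tcrg-C1, and not both Eomes and Nkg7. No gene of the αβ receptor was required. Libraries shared 5 to 14 cell barcodes per pair. Chat itself had a UMI in 33.4% to 43.8% of the cells of a library, the lower values at 30 °C. Levels are given as UMIs per 1000000 UMIs (CPM) of all cells of a type in a library. Macrophages numbered 157 and 174 at 30 °C, with 439 and 156 at 4 °C, so the first cold library held more of them. For γδT cells the numbers were 170, 176, 82 and 26. A type was compared between temperatures when every library held at least 20 of its cells, which left out lymphatic endothelial cells, with as few as 5.

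For the receptor, for a phosphodiesterase that changed in macrophages, and for Rgs2, 1 of the 2 genes that changed in type 2 innate lymphoid cells (ILC2), the 250 bases upstream of a RefSeq transcript start are shown, read from GRCm38.p6, the assembly of the mm10 build named in the files. Capitals mark the core of the cAMP response element, TGACG or its reverse complement CGTCA.
Adrb1, chr19:56721867-56722116, plus strand: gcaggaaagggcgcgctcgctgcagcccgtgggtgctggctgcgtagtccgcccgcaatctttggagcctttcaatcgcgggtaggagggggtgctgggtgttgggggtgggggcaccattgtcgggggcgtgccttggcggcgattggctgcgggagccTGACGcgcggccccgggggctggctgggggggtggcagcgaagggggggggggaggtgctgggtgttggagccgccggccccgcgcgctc
Pde4b, chr4:102421305-102421554, plus strand: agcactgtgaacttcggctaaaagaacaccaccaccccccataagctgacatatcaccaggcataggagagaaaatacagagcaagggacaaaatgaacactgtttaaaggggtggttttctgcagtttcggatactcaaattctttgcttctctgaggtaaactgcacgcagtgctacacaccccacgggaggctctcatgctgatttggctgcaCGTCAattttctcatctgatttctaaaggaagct
Rgs2, chr1:144004150-144004399, minus strand: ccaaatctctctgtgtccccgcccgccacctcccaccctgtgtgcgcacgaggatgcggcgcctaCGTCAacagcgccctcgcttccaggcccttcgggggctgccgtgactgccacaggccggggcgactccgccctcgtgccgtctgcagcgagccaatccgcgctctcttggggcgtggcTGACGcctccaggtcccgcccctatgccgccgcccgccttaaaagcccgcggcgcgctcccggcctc
The Pde4b window belongs to 1 of its 4 listed starts and lies within the gene as annotated, chr4:102087543-102607259, since longer forms start further upstream. The Adrb1 gene lies at chr19:56722199-56733113 and the Rgs2 gene at chr1:143999338-144004161, so their windows lie at or just before the 5′ end. Windows were listed for 6 of the 9 genes, 11 in all, and 4 of them, 1 each of Adrb1, Pde4a, Pde4b and Rgs2, held a core on either strand. The core stood in 17.8% of all 32851 mouse windows of this length. The full 8-base element TGACGTCA, which contains the core on both strands, stood in none of the 11 windows and in 1.55% of all windows. The windows of Fosl2 and Pde4d held neither, and a letter match is no evidence of a bound factor. Crem, Pde3b and Pde7a are named only.

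Adrb1, the beta-1 adrenergic receptor, stood apart in macrophages. Its level in macrophages was 18.1 and 17.7 CPM at 30 °C, with 20.1 and 21.0 CPM at 4 °C, and 19.2 ± 1.58 CPM over the 4 libraries (SD, n = 4). The next cell type, γδT cells, held 6.58 and 2.69 CPM at 30 °C, against 8.13 and 6.94 CPM at 4 °C. No library of γδT cells reached a library of macrophages, and no library of the remaining 10 types reached one of γδT cells. ILC2 (1.38 ± 1.10 CPM) and αβT cells (1.17 ± 0.53 CPM) came next and overlapped, as did each later pair of neighbours in the order, from regulatory T cells (Treg, 0.623 CPM) and Eomes+ T cells (0.569 CPM) through plasma cells (0.505 CPM) and germinal centre (GC) B cells (0.111 CPM) to B cells (0.0116 CPM).

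Dendritic cells, stromal cells and lymphatic endothelial cells had no Adrb1 UMI. A floor of 3 counts over the 4 libraries, set against the macrophage level as counted, puts Adrb1 at least 23.8-fold lower in dendritic cells. The same floor gives at least 7.13-fold in stromal cells and at least 6.0-fold in lymphatic endothelial cells. The exact 95% interval of the ratio, which takes in the counting error of macrophages too, starts lower, at 19.1, 5.73 and 4.83. In B cells 1 UMI was counted, against 167 in macrophages, a ratio of CPM of 1508 with an exact 95% interval of 267 to 59925. An Adrb1 UMI was found in 137 of 926 macrophages, or 14.8% (12.6 to 17.2%, exact Clopper-Pearson interval at 95%, counting error only). The share was 5.07% (3.24 to 7.505%) of 454 γδT cells and 0.0122% of 8229 B cells. Median depths were close, at 8762 UMIs in macrophages, 8650.5 in γδT cells and 7830 in B cells, and the share in B cells can be read as background. Adrb1 was 14.8-fold higher in macrophages than in αβT cells (log2 difference 3.89, SE 0.27, adjusted p = 1.51e-06, edgeR) and 11.2-fold higher than in ILC2 (3.48, SE 0.41, adjusted p = 4.91e-05). None of 278 dendritic cells had a UMI of it, which allows a share of up to 1.08% (floor of 3 counts).

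Within a cell type, Adrb1 was compared between temperatures in macrophages only, since its counts were too low elsewhere. The fitted difference was 0.14 on the log2 scale (SE 0.24, adjusted p = 0.75, edgeR), although the 2 cold libraries lay above both at 30 °C. Its sign turned to -0.18 under a stricter marker gate and to -0.01 with cycling cells left out. Adrb1 was also among the genes in the tests below of whether the effect of temperature differed between cell types. It was not called there, with few UMIs outside macrophages.

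**Figure D1:**
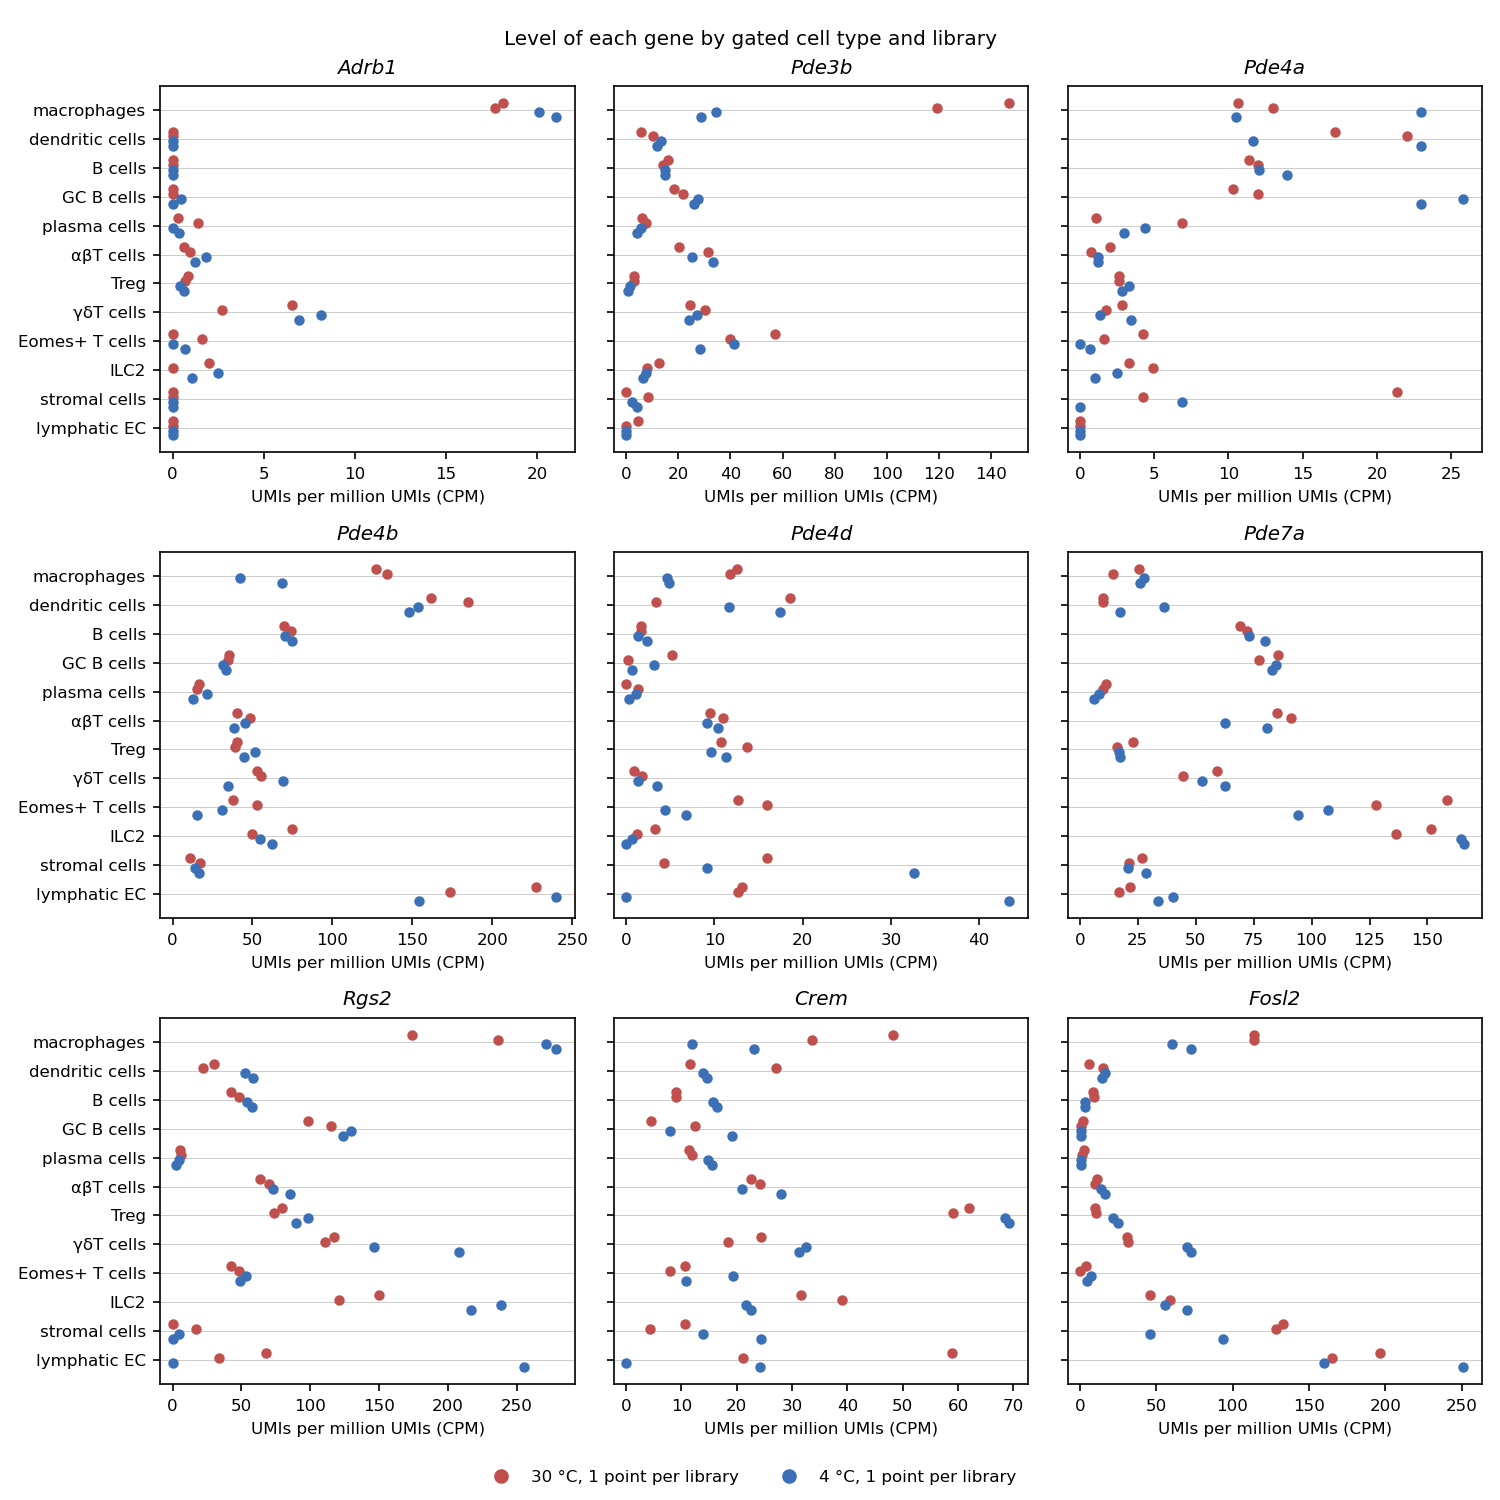
Level of each of the 9 genes (x axis, UMIs per 1000000 UMIs, CPM) in each of the 12 gated cell types (y axis), with 1 point per library, red for 30 °C and blue for 4 °C, and an x axis of its own for each gene. All 4 Adrb1 values of macrophages, 17.7 to 21.0 CPM, lie to the right of every other cell type, while Pde3b in macrophages splits into 119 and 147 CPM at 30 °C, against 28.7 and 34.3 CPM at 4 °C.

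Between temperatures, the 9 genes differed most in macrophages, where 5 of 9 were called lower at 4 °C and none higher (edgeR's quasi-likelihood test, Benjamini-Hochberg adjustment over all genes tested, threshold 0.05). Of all 9185 genes tested in macrophages, 16.9% were called, 8.31% lower and 8.56% higher. The median log2 difference of the 9 genes was -0.86, against -0.0045 for all genes. These 5 were the phosphodiesterases Pde3b, Pde4b and Pde4d, the CREB-family gene Crem and the AP-1 gene Fosl2.

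Pde3b, the phosphodiesterase that cGMP inhibits and that insulin acts through in fat cells, fell from 147 and 119 CPM to 34.3 and 28.7 CPM. Every cold library lay below every library at 30 °C, and the level was 4.24-fold lower (log2 difference -2.09, SE 0.16, adjusted p = 3.94e-06, edgeR). A Pde3b UMI was found in 59.2% and 54.6% of macrophages at 30 °C and in 23.5% and 19.2% at 4 °C. Cells with one held 2.53 and 2.13 UMIs of it on average at 30 °C and 1.29 and 1.37 at 4 °C, and both values were lower in each cold library. With cells reduced to 3300 UMIs each, which left out 11 to 43 cells per library, the shares averaged 33.3% and 9.91% (exact permutation p = 0.3333, two-sided, the smallest possible here). In B cells of the same libraries 12.3% (30 °C) and 12.8% (4 °C) of cells held a UMI, and the level of 15.9, 14.0, 15 and 14.8 CPM was not called different.

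Pde4b, a cAMP phosphodiesterase known to act in leukocytes, whose window with a core is shown above, fell from 127 and 134 CPM to 42.1 and 68.7 CPM. It was 2.61-fold lower (log2 difference -1.38, SE 0.19, adjusted p = 0.000383, edgeR), with no overlap between the groups. The share of cells with a Pde4b UMI, at 3300 UMIs per cell, averaged 32.5% at 30 °C and 14.2% at 4 °C. The 2 cold libraries differed from each other by more than those at 30 °C did, and without the first cold library, which held 439 of the 926 macrophages, the log2 difference was -0.97.

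Pde4d, another member of the same family, was lower too, at 12.5 and 11.8 CPM against 4.64 and 4.90 CPM. It was called at a log2 difference of -1.40 (SE 0.36, adjusted p = 0.0206, edgeR) but rested on few UMIs, since no library had it in more than 10.2% of macrophages. The call was lost with DESeq2 (adjusted p = 0.366), without either library at 30 °C (0.118 and 0.0928) and without the first cold library (0.154).

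The other 2 phosphodiesterases did not pass the test in macrophages. Pde4a stood at 10.6 and 13.0 CPM at 30 °C, against 23.0 and 10.5 CPM at 4 °C, so that a single cold library was high and the groups overlapped. Its log2 difference of 0.60 (adjusted p = 0.299) turned to -0.21 without that library and was called at 0.90 (adjusted p = 0.037) without the other cold library. Pde7a, a phosphodiesterase with high affinity for cAMP, stood at 25.6 and 14.2 CPM and at 27.6 and 25.9 CPM, a narrow gap next to the spread at 30 °C, with a log2 difference of 0.40 (adjusted p = 0.347).

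Rgs2, which speeds the end of signalling by G proteins, did not pass the test in macrophages either. It stood at 174 and 237 CPM at 30 °C and at 271 and 278 CPM at 4 °C, with no overlap (log2 difference 0.37, SE 0.14, adjusted p = 0.101). It was called when cells of 5000 genes or more were kept (0.0368), with no filter on low counts (0.0156), with the replicate number as a block (0.0256) and without the second library at 30 °C (0.00309).

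Crem, which encodes CREM and, from an internal promoter, the repressor ICER, fell in macrophages from 48.2 and 33.6 CPM to 11.9 and 23.1 CPM. It was 2.72-fold lower (log2 difference -1.44, SE 0.29, adjusted p = 0.00529, edgeR), and counts at the 3′ end do not separate its forms. Without the first cold library the log2 difference shrank to -0.86 (adjusted p = 0.0238). Fosl2, which encodes the AP-1 subunit Fra-2, fell from 114 CPM in both libraries at 30 °C to 60.4 and 72.9 CPM. It was 1.81-fold lower (log2 difference -0.86, SE 0.14, adjusted p = 0.00116, edgeR) with little spread at either temperature.

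Markers of other cell types moved with these falls. The 4 adipocyte markers, each with at least 1 UMI, summed to 21.3 and 13.6 CPM in macrophages at 30 °C and to 6.45 and 2.80 CPM at 4 °C, and in B cells of the same libraries to 0 to 0.343 CPM, with Lep at 0. The 3 T cell markers, all detected, summed to 23.1 and 15.9 CPM at 30 °C and to 10.8 and 14.0 CPM at 4 °C, and the 4 stromal markers, all detected, to 17.5 and 17.1 CPM and to 14.2 and 14.0 CPM. The part of these cells in the result was not tested. Genes that respond to handling of tissue, 9 of 9 detected, summed to 9513 and 11763 CPM at 30 °C, and at 4 °C to 11859 and 11363 CPM, so that the groups overlapped. Among these 9 genes Atf3 (log2 difference 1.57, adjusted p = 6.65e-05, edgeR) and Junb (0.54, adjusted p = 0.0155) rose and Dusp1 fell (-0.68, adjusted p = 0.000522), and their part in the falls was not tested. The 4 B cell markers summed to 40.03 to 57.5 CPM, also with overlap. The gate let a macrophage carry at most 2 UMIs each of B cell, T cell and stromal markers. These 3 sums were thus limited in advance, while the adipocyte and handling genes were no part of the gate. Among macrophages with at least 2 UMIs of Mrc1 and Folr2 together and none of Itgax or Trem2, a subset chosen after seeing the data, with 98 to 330 cells per library, the log2 differences were -2.11 for Pde3b, -1.55 for Pde4b, -1.56 for Crem and -1.03 for Fosl2, all called. For Pde4d the adjusted p was 0.0502 in this subset.

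**Figure D2:**
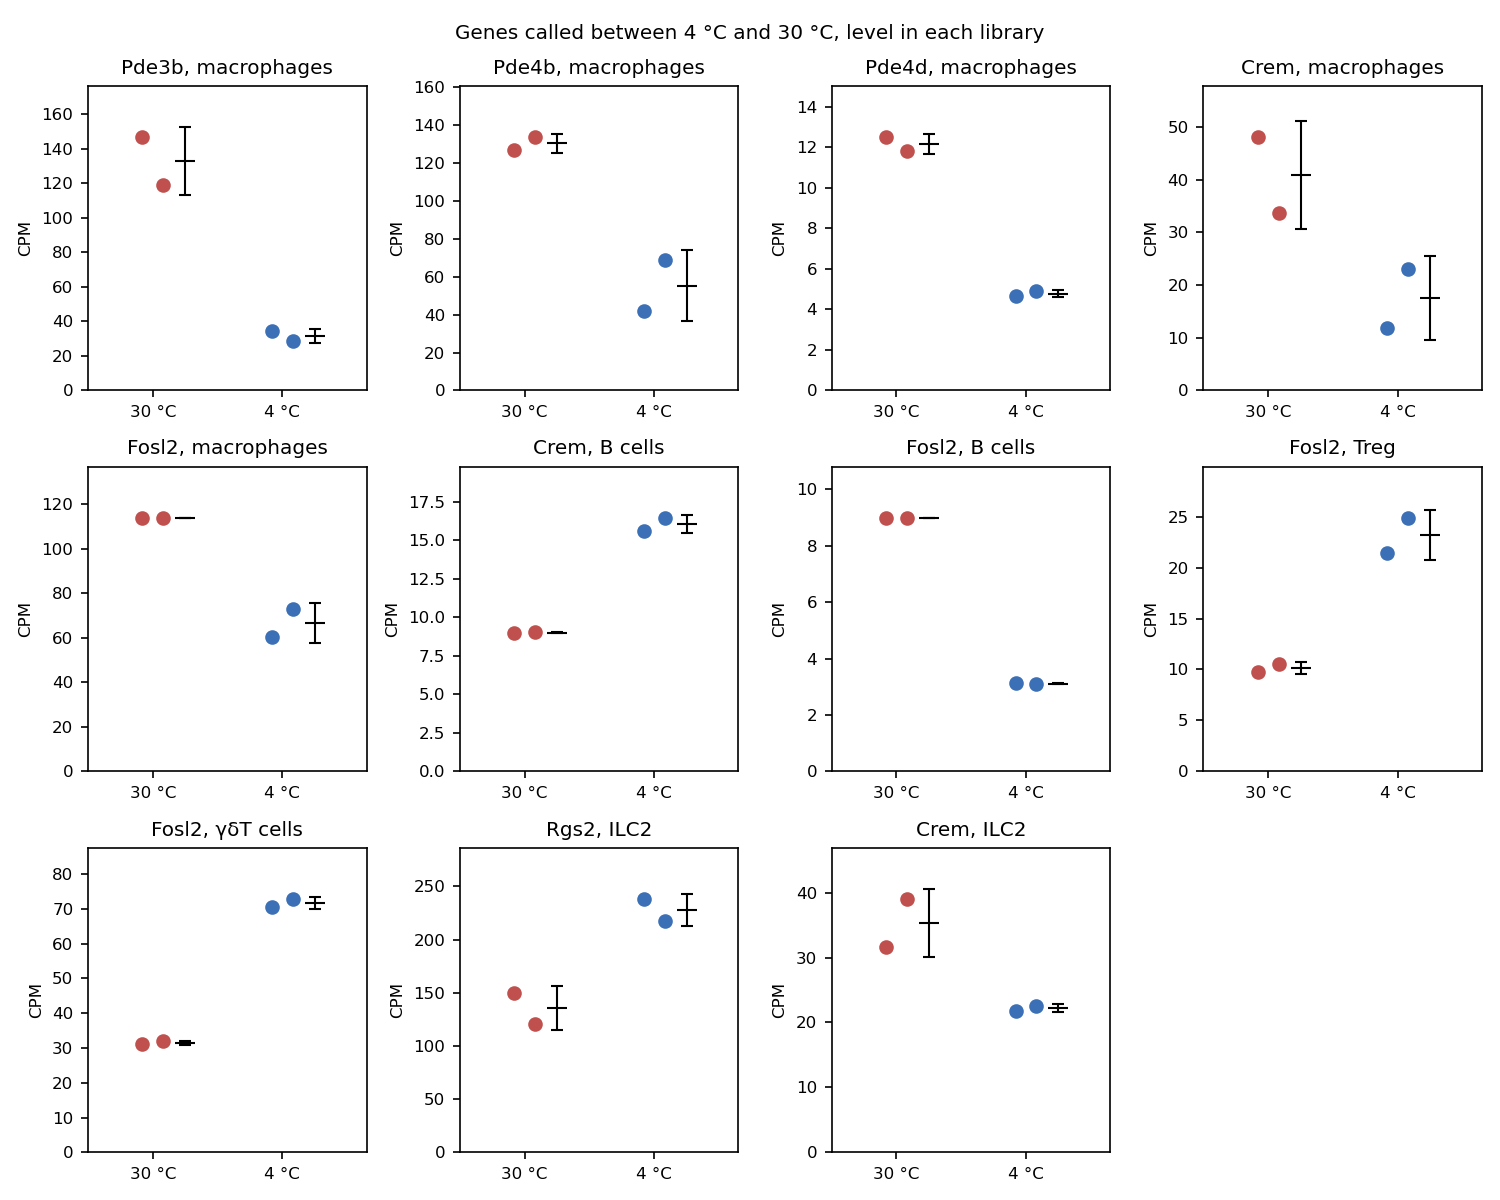
CPM in each library (points, red for 30 °C and blue for 4 °C, y axes from 0) for the 11 genes and cell types called between temperatures, with the mean and SD of the 2 libraries beside them in black. In none of the 11 do the groups overlap, and macrophage Pde4b shows the widest gap in CPM between cold libraries (42.1 and 68.7 CPM).

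In B cells 2 of 8 genes tested were called, 1 in each direction, where 14.3% of all 11634 genes were called (7.00% higher and 7.35% lower). The median log2 difference of the 8 was 0.0075, against -0.0033 for all genes. Crem rose from 8.97 and 9.05 CPM to 15.6 and 16.5 CPM. The libraries at each temperature lay close together, and the level was 1.66-fold higher (log2 difference 0.73, SE 0.09, adjusted p = 0.000734, edgeR). Fosl2 fell from 8.97 and 8.99 CPM to 3.13 and 3.1 CPM, which was 3.1-fold lower (log2 difference -1.63, SE 0.14, adjusted p = 7.3e-05, edgeR).

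Both changes in B cells were also seen as shares of cells. At 4800 UMIs per cell, 4.30% of B cells at 30 °C and 7.32% at 4 °C held a Crem UMI, and 4.14% and 1.22% a Fosl2 UMI (p = 0.3333 for each by exact permutation, as low as the design allows). Cells with a Crem UMI held 1.09 to 1.18 of them in all 4 libraries. B cells with at least 2 Ighd UMIs and those with none, a split added after seeing the data, both showed the changes, with log2 differences of 0.62 and 1.17 for Crem and of -1.95 and -1.36 for Fosl2. The 4 red cell markers, all detected, summed to 4.17 and 4.39 CPM at 30 °C and to 11.6 and 8.37 CPM at 4 °C in B cells. The 6 macrophage markers, all detected, summed to 13.5 and 12.0 CPM at 30 °C and to 17.8 and 15.6 CPM at 4 °C, and the 9 handling genes to 860 and 841 CPM and to 902 and 1013 CPM. The gate held macrophage markers to at most 2 UMIs in each B cell. The part of the red cell, macrophage and handling genes in the 2 changes was not tested.

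Rgs2 in B cells stood at 42.6 and 48.5 CPM at 30 °C and at 53.9 and 57.5 CPM at 4 °C, without overlap. It was not called (log2 difference 0.19, adjusted p = 0.0989, edgeR) and stayed uncalled under 11 of 15 alternatives. In the split by Ighd added after seeing the data, it was called in B cells with Ighd (0.27, adjusted p = 0.0399, edgeR). In those without Ighd it was not (0.03). None of the phosphodiesterases among the 9 genes was called in B cells. Pde4b was at 69.8, 74.2, 70.2 and 74.4 CPM, Pde7a at 69.1, 72.0, 73.0 and 79.9 CPM, and Pde4a at 11.4 to 14.0 CPM.

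ILC2, the innate cells that make interleukin-5 and interleukin-13, had 2 of 6 tested genes called, again 1 in each direction, where 6.95% of all 8602 genes were called (2.70% higher and 4.25% lower). Rgs2 rose from 150 and 121 CPM to 238 and 217 CPM. Both cold libraries lay above both at 30 °C, and the level was 1.6-fold higher (log2 difference 0.68, SE 0.11, adjusted p = 0.00105, edgeR). A UMI of Rgs2 was found in 40.8% of ILC2 at 30 °C and 53.1% at 4 °C with cells at 5700 UMIs. The call was lost under a stricter marker gate (0.46, adjusted p = 0.0525) and when cells of 5000 genes or more were kept (adjusted p = 0.0595).

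Crem fell in ILC2 from 31.6 and 39.0 CPM to 21.7 and 22.6 CPM (log2 difference -0.75, SE 0.21, adjusted p = 0.0323, edgeR). The share of ILC2 with a Crem UMI averaged 18.5% at 30 °C and 18.7% at 4 °C, or 15.1% and 12.2% at 5700 UMIs per cell, while cells with one held 1.6 and 1.80 UMIs at 30 °C and 1.22 and 1.10 at 4 °C. This call was lost under 5 alternatives, among them DESeq2 (adjusted p = 0.491) and leaving out the second library at 30 °C (0.191) or the first cold library (0.117). The 5 ILC2 markers themselves, all detected, summed to 879 and 733 CPM at 30 °C, and at 4 °C to 1116 and 1336 CPM. Markers of red cells and stromal cells were also higher at 4 °C in ILC2, with no overlap between the groups, as was Cd3g. The gate required Cd3d and Cd3e at 0, so the 3 T cell markers stand for Cd3g alone, which most of these cells carried. Cd3g summed to 385 and 319 CPM at 30 °C and to 446 and 466 CPM at 4 °C. Stromal markers were held by the gate to at most 2 UMIs per cell. The 4 red cell markers, with Hbb-bs at 0, summed to 1.98 and 5.58 CPM and to 8.55 and 14.7 CPM, and the 4 stromal markers, with Pdgfra at 0, to 1.98 and 1.86 CPM and to 4.99 and 6.31 CPM. The part of these in the 2 calls was not tested.

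Fosl2 was higher at 4 °C in a pair of T cell types. In Treg, T cells with Foxp3, it rose from 9.73 and 10.5 CPM to 21.4 and 24.9 CPM, 2.18-fold (log2 difference 1.13, SE 0.16, adjusted p = 0.0025, edgeR). It was the 1 gene called of 8 tested there, where 4.37% of all genes were called. In γδT cells it rose from 31.0 and 31.9 CPM to 70.5 and 72.9 CPM, 2.15-fold (log2 difference 1.11, SE 0.21, adjusted p = 0.0217, edgeR), 1 of 6 tested where 2.87% of all genes were called. The groups did not overlap in either type.

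The Treg call was kept under all 13 alternatives, and the γδT call was lost under 5 of 13. These 5 were leaving out cycling cells (0.55, adjusted p = 0.283), keeping cells of 5000 genes or more (0.46, adjusted p = 0.755), DESeq2 (adjusted p = 0.155), the replicate number as a block (0.0974) and leaving out the first cold library (0.075), while without the second cold library of 26 cells it was kept (0.000553). Cycling cells were 68 of 170 and 54 of 176 γδT cells at 30 °C, and 4 of 82 and 6 of 26 at 4 °C. The 5 ILC2 markers, with Il5 at 0, summed in γδT cells to 89.8 and 73.2 CPM at 30 °C and to 100.3 and 253 CPM at 4 °C, and Fosl2 itself was high in ILC2. The sum of the 9 handling genes was higher at 4 °C in both types. It came to 1727 and 1863 CPM at 30 °C in Treg, to 2341 and 2415 CPM at 4 °C, and to 1498, 1722, 3103 and 2360.4 CPM in γδT cells. The part of the ILC2 markers and handling genes in the rise of Fosl2, itself an AP-1 gene, was not tested.

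In αβT cells 0 of 7 genes were called by edgeR and 0 by DESeq2, where 2.75% of all 10667 genes were called by edgeR (0.900% higher and 1.85% lower). At an unadjusted p under 0.05 there were 2. Pde7a, known for its part in T cell activation, stood at 85.2 and 91.2 CPM at 30 °C and at 62.5 and 80.7 CPM at 4 °C (log2 difference -0.37, adjusted p = 0.0923). Fosl2 stood at 11.5 and 10.01 CPM and at 13.7 and 16.8 CPM (0.43, adjusted p = 0.277). Crem stood at 22.5, 24.2, 21.0 and 28.0 CPM, with overlap.

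In the 5 remaining types no gene was called either. Tested were 7 in GC B cells, 6 in plasma cells, 4 in Eomes+ T cells, 8 in dendritic cells and 1 in stromal cells. The share of all genes called was 1.03% in GC B cells, 0.687% in plasma cells, 0.289% in Eomes+ T cells, 2.22% in dendritic cells and 0.0498% in stromal cells. Over these types and αβT cells there were 33 tests, with 8 at an unadjusted p under 0.05 and 0 calls by DESeq2. Pde4a in GC B cells came nearest, at 10.3 and 12.0 CPM against 25.8 and 23.0 CPM (log2 difference 0.95, SE 0.22, adjusted p = 0.0712). In dendritic cells Rgs2 stood at 30.1 and 22.0 CPM against 52.8 and 58.7 CPM (1.03, adjusted p = 0.0721, edgeR). Pde7a in the same cells had a larger difference with a higher adjusted p (1.38, SE 0.46, adjusted p = 0.163, edgeR). In all, 70 tests of a gene in a type were made in 11 types, and 11 were called, 4 higher and 7 lower at 4 °C.

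**Figure D3:**
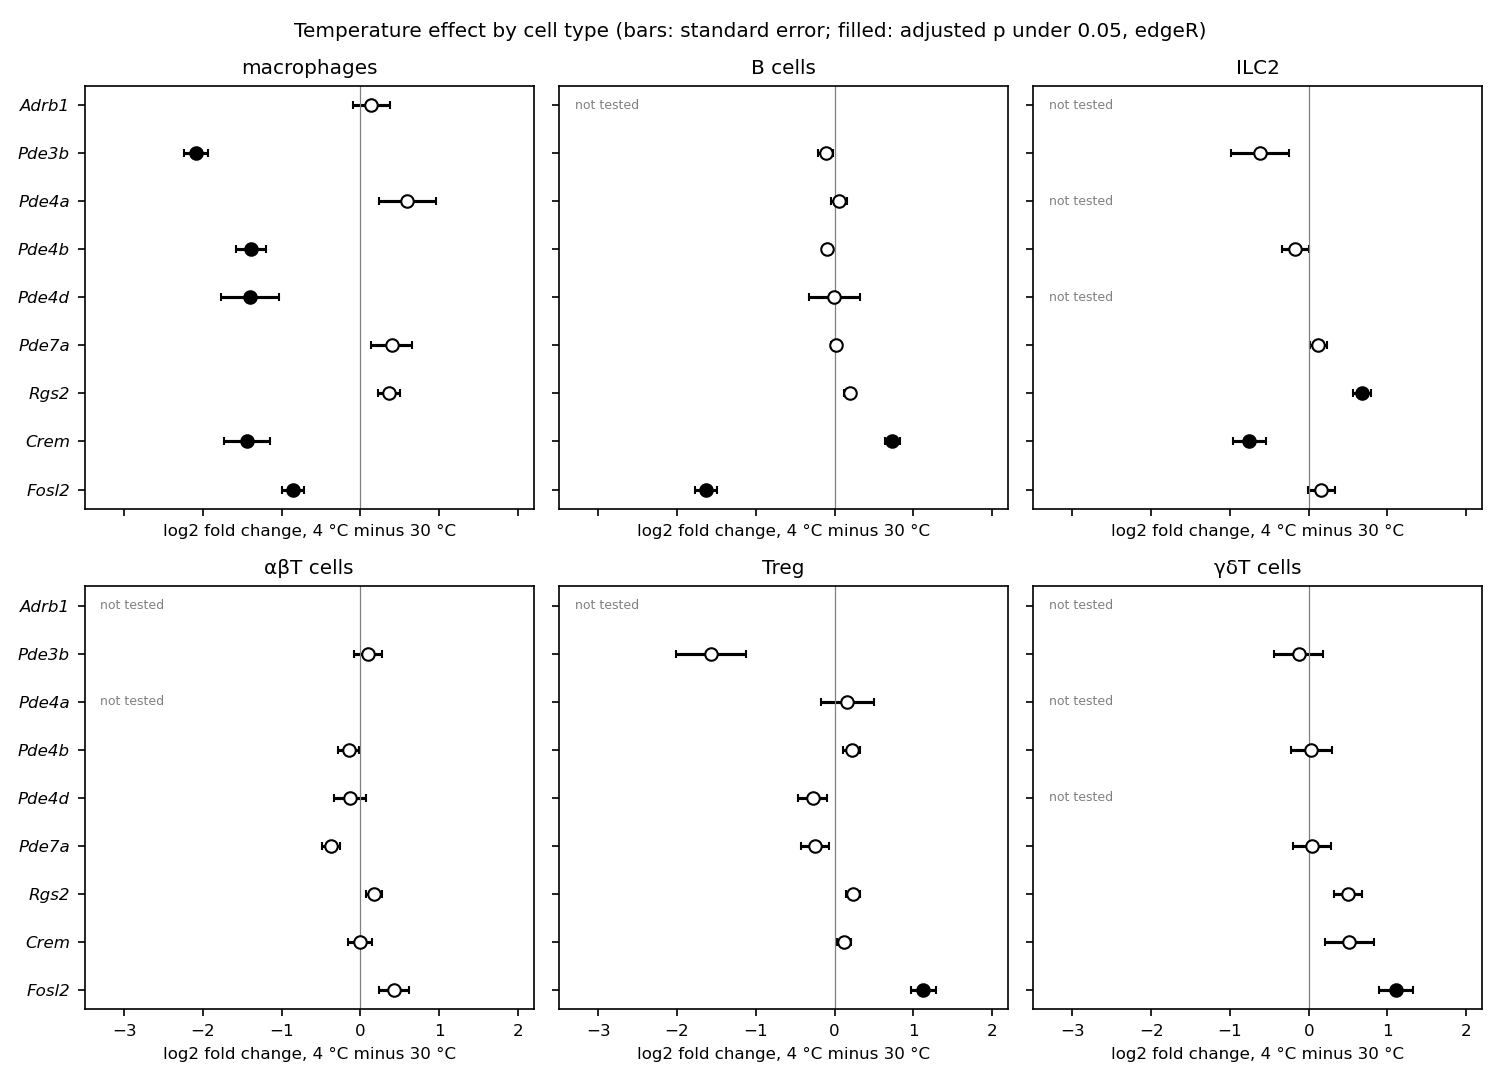
Fitted log2 difference of each gene (x axis, 4 °C minus 30 °C) with its standard error in 6 cell types, filled where the adjusted p was under 0.05 (edgeR). In macrophages 5 filled points lie to the left of 0, from Pde3b at -2.09 to Fosl2 at -0.86, while Crem lies at 0.73 in B cells and Fosl2 at 1.13 in Treg and 1.11 in γδT cells.

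A difference in the effect of temperature was tested, as an interaction, for each pair of macrophages, B cells, αβT cells and ILC2, with the library as a factor. Of 52 tests 15 were called. Between macrophages and B cells 4 of 9 genes were called (7.97% of all genes), between macrophages and αβT cells 5 of 9 (7.30%), and between macrophages and ILC2 3 of 9 (4.89%). Between αβT cells and B cells 1 of 9 was called (1.60%), between ILC2 and B cells 2 of 8 (2.18%), and between ILC2 and αβT cells 0 of 8 by edgeR (0.520%), with 3 at an unadjusted p under 0.05, namely Rgs2, Pde7a and Crem. DESeq2 was not run for interactions.

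The effect on Pde3b and Pde4b was lower in macrophages than in each of the other 3 types. For Pde3b the effect was lower by 1.95 than in B cells (log2 scale, SE 0.19, adjusted p = 1.05e-10, edgeR) and by 2.12 than in αβT cells (SE 0.24, adjusted p = 6.73e-10). Against ILC2 it was lower by 1.51 (adjusted p = 0.0208), a call lost without the second library at 30 °C (adjusted p = 0.0746), without either cold library (0.175 and 0.06) and under the stricter gate (0.324). For Pde4b the effect was lower by 1.24 than in B cells (SE 0.17, adjusted p = 5.09e-07), by 1.24 than in αβT cells (adjusted p = 1.28e-05) and by 1.23 than in ILC2 (adjusted p = 0.00238). Without the first cold library the last 2 were no longer called (0.0704 and 0.0638).

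The effect of temperature on Crem and Fosl2 differed between types as well. Crem was called higher in B cells and lower in macrophages and ILC2. Fosl2 was called lower in macrophages and B cells and was not called in αβT cells (0.43) or ILC2 (0.16). The effect on Crem was lower by 2.11 in macrophages than in B cells (SE 0.28, adjusted p = 2.01e-07, edgeR) and by 1.47 in ILC2 than in B cells (SE 0.24, adjusted p = 0.00029). Against αβT cells macrophages were lower by 1.35 (adjusted p = 0.000487), a call lost without the first library at 30 °C (adjusted p = 0.0718). The effect on Fosl2 was 2.08 higher in αβT cells than in B cells (SE 0.24, adjusted p = 0.000123) and 1.82 higher in ILC2 than in B cells (SE 0.23, adjusted p = 7.42e-06). Fosl2 fell in both macrophages and B cells, by less in macrophages (difference 0.83, adjusted p = 0.00813, lost without the second cold library at 0.109).

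The levels of the genes differed between cell types far more often than between temperatures. Of 52 tests of a gene between 2 of the 4 main types 38 were called. This must be read against all genes, of which 70.7% were called between macrophages and B cells (6 of 9 here), 72.2% between macrophages and αβT cells (7 of 9), 68.9% between macrophages and ILC2 (5 of 9), 68.6% between αβT cells and B cells (7 of 9), 34.5% between ILC2 and αβT cells (6 of 8) and 59.4% between ILC2 and B cells (7 of 8). Scaling matters here, since TMM factors put differences 0.54 (log2) lower for macrophages against B cells, 0.43 lower for αβT cells against B cells and 0.32 lower for ILC2 against B cells than plain CPM does. Between temperatures the shift was -0.02 to -0.11. Pde4a in macrophages against B cells (-0.27) and Rgs2 in αβT cells against B cells (0.10) were not called, although mean CPM was higher in the first type each time.

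Pde7a was highest in ILC2 and Eomes+ T cells. ILC2 held 155 ± 13.7 CPM (SD, n = 4) and Eomes+ T cells 122 ± 28.1 CPM, which overlapped each other and lay above all other types. GC B cells (82.6 CPM), αβT cells (79.9 CPM) and B cells (73.5 CPM) followed with overlap between neighbours, then γδT cells (54.8 CPM). The remaining types lay between 28.1 CPM in lymphatic endothelial cells and 9.03 CPM in plasma cells, with macrophages at 23.3 CPM and Treg at 18.3 CPM. Pde7a was 7.41-fold lower in macrophages than in ILC2 (log2 difference -2.89, SE 0.15, adjusted p = 1.49e-07, edgeR) and 4.56-fold lower than in B cells (-2.19, adjusted p = 5.12e-06). Against B cells αβT cells were called lower by 0.33 (adjusted p = 0.00298) although their mean CPM was higher, since TMM reverses that order.

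Pde4b was highest in lymphatic endothelial cells (199 ± 41.3 CPM) and dendritic cells (162 ± 16.1 CPM), which overlapped and had no library in reach of the next type. Macrophages (92.9 CPM over both temperatures) and B cells (72.1 CPM) came next. In CPM macrophages lay above B cells at 30 °C (127 and 134 against 69.8 and 74.2 CPM) and below them at 4 °C (42.1 and 68.7 against 70.2 and 74.4 CPM), where the interaction given above was called. Over both temperatures their order turned under TMM scaling, with no call (log2 difference -0.31, adjusted p = 0.282). From ILC2 (60.1 CPM) through γδT cells, Treg, αβT cells and Eomes+ T cells to GC B cells (33.7 CPM) each neighbour overlapped the next. Plasma cells (16.7 CPM) and stromal cells (14.5 CPM) lay below GC B cells without overlap. The lowest library of Eomes+ T cells, at 15.5 CPM, lay within the ranges of both.

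Pde4a and Pde4d, of the same family, had other orders. Pde4a stood at 18.4 CPM in dendritic cells, 17.7 CPM in GC B cells, 14.3 CPM in macrophages and 12.3 CPM in B cells, with overlap, and at 1.32 to 3.84 CPM in plasma cells, ILC2 and the 4 types of T cells. Stromal cells held 8.13 ± 9.25 CPM of it and lymphatic endothelial cells no UMI. It was 12.8-fold lower in αβT cells than in B cells (log2 difference -3.68, SE 0.19, adjusted p = 1.35e-08, edgeR). Pde4d reached 17.3 ± 18.4 CPM in lymphatic endothelial cells and 15.5 ± 12.4 CPM in stromal cells, 8.47 to 12.8 CPM in dendritic cells, Treg, αβT cells, Eomes+ T cells and macrophages, and 0.713 to 2.29 CPM in the other 5 types, with overlap at each step. It was 4.19-fold higher in αβT cells than in B cells (2.07, SE 0.17, adjusted p = 7.26e-07).

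Pde3b was highest in macrophages (82.3 ± 59.8 CPM, with the 2 temperatures apart), where the 2 cold libraries (34.3 and 28.7 CPM) lay within the range of Eomes+ T cells (41.7 ± 11.7 CPM, from 28.4 to 57.0 CPM). αβT cells (27.5 CPM), γδT cells (26.5 CPM) and GC B cells (23.4 CPM) followed with overlap, then B cells (14.9 CPM), apart from both neighbours, dendritic cells (10.3 CPM) and ILC2 (8.59 CPM). Treg held only 2.03 ± 1.17 CPM, from 2.92 and 3.13 CPM at 30 °C to 1.32 and 0.754 CPM at 4 °C (log2 difference -1.57, adjusted p = 0.0747). Plasma cells (5.86 CPM), stromal cells (3.74 CPM) and lymphatic endothelial cells (1.09 CPM) were low as well.

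Rgs2 ran from macrophages (240 ± 47.7 CPM) through ILC2 (182 ± 55.3 CPM), γδT cells (146 CPM) and GC B cells (117 CPM), each overlapping the next. Lymphatic endothelial cells (89.3 ± 114 CPM), Treg (85.4 CPM) and αβT cells (73.0 CPM) came after them, then B cells (50.6 CPM), Eomes+ T cells (48.1 CPM) and dendritic cells (40.9 CPM). Stromal cells (5.43 CPM) and plasma cells (4.69 CPM) lay far below. Rgs2 was 3.24-fold higher in macrophages than in B cells (log2 difference 1.70, SE 0.10, adjusted p = 8.21e-07, edgeR), and macrophages and ILC2 were not called different (0.27, adjusted p = 0.118).

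Crem was highest in Treg, at 62.0 and 59.1 CPM at 30 °C, against 68.6 and 69.2 CPM at 4 °C, and no library of another type reached these. The other 11 types ran from macrophages (29.2 ± 15.5 CPM), ILC2 (28.8 CPM), γδT cells (26.7 CPM), lymphatic endothelial cells (26.1 CPM) and αβT cells (23.9 CPM) through dendritic cells (16.8 CPM), plasma cells (13.4 CPM), stromal cells (13.3 CPM), B cells (12.5 CPM) and Eomes+ T cells (12.2 CPM) to GC B cells (11.02 CPM), each overlapping the next. With its rise in B cells and fall in macrophages, B cells at 4 °C (15.6 and 16.5 CPM) lay within the range of macrophages at 4 °C (11.9 and 23.1 CPM).

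Fosl2 was highest in lymphatic endothelial cells (193 ± 41.7 CPM), which lay above all others, and stromal cells (100.4 ± 40.3 CPM), macrophages (90.2 ± 27.7 CPM), ILC2 (57.6 CPM) and γδT cells (51.6 CPM) formed an overlapping series. After a gap came Treg (16.7 CPM), αβT cells and dendritic cells (13.0 CPM each), B cells (6.05 CPM), Eomes+ T cells (4.09 CPM), plasma cells (1.42 CPM) and GC B cells (1.27 CPM). It was 10.9-fold higher in macrophages than in B cells (log2 difference 3.45, SE 0.19, adjusted p = 5.78e-07, edgeR) and 8.27-fold higher in ILC2 than in B cells (3.05, SE 0.28, adjusted p = 7.5e-07).

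The genes most alike in pattern to each of the 9 were found by Pearson's r of log2(CPM + 1) over the 48 sums of 12 types and 4 libraries, among 8425 genes. The sums of 1 library share its depth and those of 1 type its makeup, so r is given as a description. Rgs2 was most like Mis18a (r = 0.92), Fosl2 most like Kidins220 (0.89), and Pde7a most like the ribosomal protein gene Rpl8 (0.84). Adrb1 was most like Ctsa (0.81), a lysosomal protease gene. Pde4b was most like Rnf19b (0.81), Crem most like Snx14 (0.80), Pde4a most like Ciita (0.79), the master regulator of MHC class II genes, Pde3b most like Acss1 (0.78) and Pde4d most like Ifih1 (0.77). Among the 9 genes themselves r ran from -0.30 (Pde4a and Fosl2) to 0.52 (Adrb1 and Pde3b).

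Of 94 further genes of the pathway in 11 lists, 61 could be tested in macrophages. There 7 were called higher and 12 lower at 4 °C, where 8.56% of all genes were called higher and 8.31% lower. The median log2 difference was 0.19 over the 61, against -0.0045 for all genes. At the receptor, Ptger2, for the Gs-coupled prostaglandin E2 receptor EP2, fell from 50.04 and 41.9 CPM to 12.9 and 14.7 CPM (log2 difference -1.82, SE 0.21, adjusted p = 0.000109, edgeR). The receptor kinase Grk2 (0.56) and arrestin Arrb1 (0.81), which shut receptors off, rose, and the Gγ subunit Gng2 fell (-0.70).

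Among the other phosphodiesterases, 2 of 3 tested in macrophages fell and none rose. Pde7b, the close relative of Pde7a, fell from 31.9 and 28.3 CPM to 1.55 and 1.40 CPM (99 UMIs against 8, log2 difference -4.32, SE 0.36, adjusted p = 9.47e-06, edgeR). Pde8a fell from 23.8 and 22.4 CPM to 12.9 and 10.5 CPM (-0.98). Together with Pde3b, Pde4b and Pde4d, 5 of the 8 phosphodiesterase genes tested in macrophages were called lower at 4 °C, against 8.31% of all genes tested there. These genes were chosen with earlier results of these data known, so the count is a description. It includes Pde4d, whose call was lost under the alternatives given above.

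Of the known target genes of cAMP and CREB tested in macrophages, 3 of 7 fell and none rose. Their median log2 difference was 0.23, so the median and the calls differ in sign. Per1, a clock gene, fell from 226 and 181 CPM to 50.1 and 69.4 CPM (log2 difference -1.88, SE 0.16, adjusted p = 1.34e-05, edgeR), and Nfil3, a bZIP repressor, fell from 53.8 and 50.2 CPM to 15 and 11.9 CPM (-1.94). The other fall was that of Dusp1 (-0.68), given above among the handling genes, and Fos and Dusp1 stand in both lists. Of the CREB family, its coactivators and the salt-inducible kinases 2 of 9 fell, both kinases. Sik1, itself induced by cAMP, fell from 154 and 163 CPM to 44.9 and 46.2 CPM (-1.86, SE 0.13, adjusted p = 2.21e-06), and Sik3 fell by 1.09 on the log2 scale.

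Protein kinase A and its partners moved both ways in macrophages, 2 of 14 higher and 2 lower. The catalytic subunit gene Prkacb rose by 0.56 and the inhibitor gene Pkib by 1.95 (14 UMIs against 88), while the anchor genes Akap7 (-1.56) and Akap8 (-0.52) fell. Of the other RGS genes 2 of 6 rose and 1 fell. Rgs1 fell from 484 and 571 CPM to 233 and 270 CPM (log2 difference -1.13, SE 0.12, adjusted p = 6.95e-05, edgeR), and Rgs18 (0.72) and Rgs3 (2.16) rose. Junb, an AP-1 subunit like Fra-2, rose by 0.54, while Fosl2 fell. No adenylyl cyclase was called of 3 tested.

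In B cells 15 of 72 such genes were higher and 8 lower, where 7.00% of all genes were called higher and 7.35% lower. The median log2 difference was 0.07, against -0.0033 for all genes. Here 4 of 11 known target genes rose, among them the nuclear receptor genes Nr4a3, from 1.86 and 3.11 CPM to 6.20 and 5.27 CPM (log2 difference 1.11, SE 0.24, adjusted p = 0.0129, edgeR), and Nr4a2 (1.10). Dusp1, for a phosphatase of MAP kinases, fell (-0.82), as did Sik1 (-0.57). Of protein kinase A genes 4 of 14 fell and 1 rose. The regulatory subunit gene Prkar2b fell from 6.33 and 5.84 CPM to 2.18 and 2.13 CPM (-1.6) and the inhibitor gene Pkig fell (-0.56), while Pkib rose (0.33). The G protein genes Gnai2 (0.21) and Gnb2 (0.25), 2 of 4 called of 7, rose by little, as did the coactivator gene Ep300 (0.25), Rgs10 (0.27), Rgs18 (0.36) and Jund (0.16). Adcy6 rose (2.70), Adcy7 fell (-0.17) and the phosphodiesterase gene Pde2a fell (-1.52).

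In αβT cells 6 of 71 were higher and 2 lower, where 0.900% of all genes were called higher and 1.85% lower. The median log2 difference was 0.055, against -0.0065 for all genes. Ptger4, for the Gs-coupled receptor EP4, rose from 63.7 and 65.4 CPM to 101 and 97.8 CPM (log2 difference 0.56, SE 0.09, adjusted p = 0.00279, edgeR). The targets Areg (0.88) and Nr4a1 (0.55) rose and Dusp1 fell (-0.44), and Junb (0.28) and Jund (0.35) rose. Adcy6 was called higher on 29 UMIs at 4 °C against 1 at 30 °C. Its CPM ratio was 20.9, with an exact interval of 3.46 to 853. Rapgef3, for the cAMP sensor Epac1, was called lower on 4 UMIs at 4 °C against 22 at 30 °C (log2 difference -2.91).

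In ILC2 6 of 61 were higher and 4 lower, where 2.70% of all genes were called higher and 4.25% lower. The median log2 difference was 0.038, against 0.0011 for all genes. Vipr2, for a Gs-coupled receptor of vasoactive intestinal peptide, fell from 38.9 and 27.9 CPM to 5.70 and 7.36 CPM (log2 difference -2.44, SE 0.29, adjusted p = 2.18e-05, edgeR). Ptger4 rose in the same cells, from 71.1 and 84.9 CPM to 129 and 143 CPM (0.72, SE 0.13, adjusted p = 0.00184). The G protein genes Gng5 (0.29) and Gnb2 (0.49) rose, Grk2 rose (0.49) and Arrb2 fell (-0.48), Pde7b (-1.46) and Per1 (-0.95) fell, and Rgs1 (0.30) and Jund (0.55) rose.

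**Figure D4:**
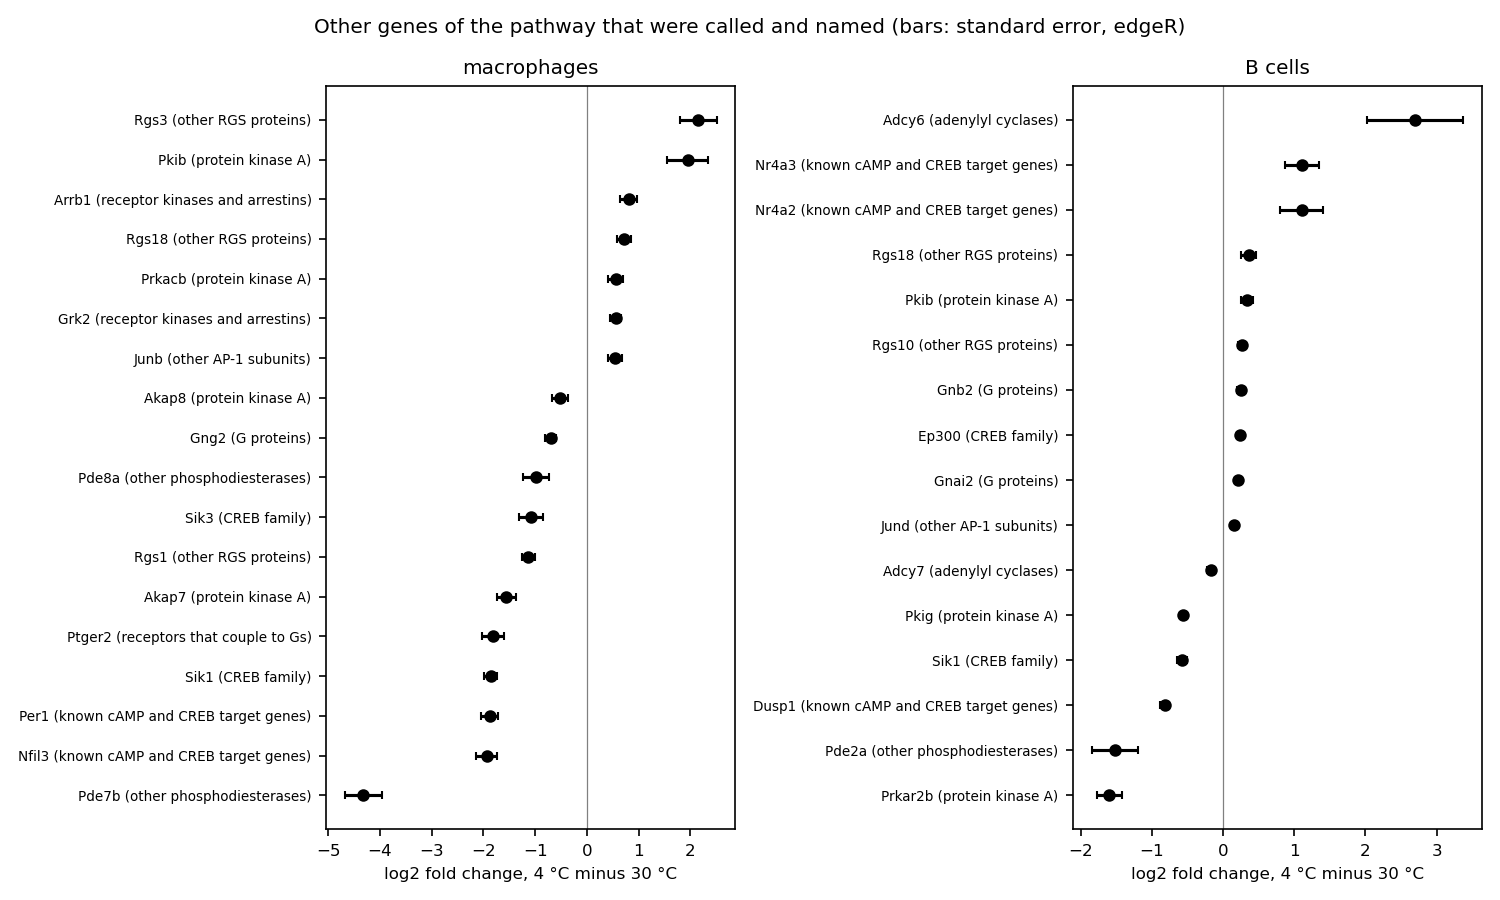
Fitted log2 difference (x axis, 4 °C minus 30 °C) with its standard error for the other genes of the pathway that were named among those called in macrophages (18 genes) and B cells (16 genes). In macrophages Pde7b lies farthest to the left at -4.32 and Rgs3 farthest to the right at 2.16, and in B cells Prkar2b lies at -1.6 and Adcy6 at 2.70 (5 UMIs at 30 °C against 35).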

How the data were processed

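Cells of 4 libraries of single-cell RNA sequencing were analysed, 2 labelled biological replicates per temperature. The authors deposited counts, as unnormalised UMIs per gene and cell, made with Cell Ranger (3.0.0 per the file headers, 3.1.0 per the submitters' notes) on mm10. Cells with over 200 and under 5000 genes and under 7.5% mitochondrial UMIs were kept, after a minimum of 100 genes per cell and 10 cells per gene. Cell types were gated by marker UMIs, and counts were summed per type and library.

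Sums were tested in R 4.3.3 with edgeR 4.0.16 (TMM, filterByExpr, quasi-likelihood test, Benjamini-Hochberg adjustment over all genes tested, threshold 0.05). SEs were derived from the quasi-likelihood F. DESeq2 1.42.0, other scaling, filters and gates, the replicate number as a block and leaving out each library were alternatives. Scanpy 1.11.5 was used for Scrublet, which marked 2.10 to 2.72% of cells as doublets, and these were removed only as an alternative. Exact permutation tests used scipy 1.17.1. The replicate numbers were checked for pairing, and only 2 pairs existed.

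The 9 genes and all lists were chosen with earlier results of these data known. All 9 are named, and of the other pathway genes up to the 2 largest rises and 2 largest falls past the threshold per list in each of the 4 main types, and the first of the 3 genes most alike in pattern to each of the 9. A further receptor gene is not reported here. On simulated data at these library sizes, 68% of genes changed 2-fold and 100% of those changed 4-fold were recovered in macrophages (9135 genes, 3.45% false calls), 85% and 100% in B cells (11446 genes, 2.12%) and 82% and 100% in αβT cells (10486 genes, 2.67%). The changed genes in these simulations were drawn only from genes with more UMIs than Adrb1 or Pde4d had in macrophages. The variation between libraries was set to a fixed value and not estimated, so the rates do not cover such low counts. Intervals and floors cover counting error only.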

Additional observations from a re-analysis of the deposited data

Results flagged for a closer look

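The effect of 4 °C against 30 °C differed between cell types in 15 tests of the difference itself (interaction in edgeR, adjusted p under 0.05), each on the log2 scale and with 2 libraries per temperature. Against B cells, the effect in macrophages was -1.95 for Pde3b, -1.24 for Pde4b, -2.11 for Crem and 0.83 for Fosl2, the last lost without the second cold library (0.72, adjusted p = 0.109). In αβT cells against B cells it was 2.08 for Fosl2, and in ILC2 against B cells 1.82 for Fosl2 and -1.47 for Crem.

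Against αβT cells, the effect in macrophages was -2.12 for Pde3b, -1.24 for Pde4b, -1.24 for Fosl2, -1.35 for Crem and 0.85 for Pde7a. Without the first cold library the Pde4b value was -0.67 (adjusted p = 0.0704), and without the first library at 30 °C the Crem value was -1.03 (0.0718). The Pde7a value was 0.43 (adjusted p = 0.592) without the second library at 30 °C, 0.56 (0.457) without the first cold library and 0.59 (0.536) under the stricter gate. Against ILC2, the effect in macrophages was -1.51 for Pde3b, -1.23 for Pde4b and -1.02 for Fosl2. Under the stricter gate none of these 3 passed the threshold, at -1.25 (adjusted p = 0.324), -1.03 (0.0662) and -0.80 (0.154).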

How the results depend on the processing

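Over the alternatives, 78 counts and shares stayed the same, 5 were higher and 6 lower. A count was the same when equal or within 1.5 times, and a difference in shares when its sign was kept. Of the values of single genes 353 kept direction and side of the threshold, 25 newly passed it, 30 no longer passed it and 3 reversed. Reversed were Adrb1 in macrophages (-0.18 under the stricter gate, -0.013 without cycling cells) and Pde4a in macrophages (-0.21 without the first cold library, and 0.90, then called, without the second). The reversed values were not called. In αβT cells the count of 0 called genes became 1 without cycling cells, with no filter on low counts and with the replicate block (0 to 1 on leaving out a library). In ILC2 the count of 2 became 0 under the stricter gate and when cells of 5000 genes or more were kept, and 1 with DESeq2 (1 to 2 on leaving out a library). Over all types the 11 calls became 7 under the stricter gate and 18 with no filter. Under the stricter gate γδT cells, with 11 in the second cold library, fell below the number set for a comparison. Their Fosl2 call could thus not be made there. The cause of the other shifts was not tested. Leaving out a library gave 4 to 6 calls in macrophages and 2 in B cells each time, 11 to 18 interactions and 35 to 42 differences in level. With 1 library left in a group, it is assumed to vary like the others. The subsets of macrophages and B cells and the crossed pairing were chosen after seeing the data.

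Groups shared replicate numbers 1 and 2. Replicate differences at the 2 temperatures correlated at 0.31 in B cells, -0.10 in γδT cells and -0.08 to 0.09 in the other 9 types. With 2 pairs the numbers were not taken to pair the libraries, and whether they mark a shared day or batch was not tested. With the replicate block 16 calls were made over all types. In γδT cells 233 genes were called in all, 20 with the replicate block and 556 with the crossed pairing.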
